A study of Mus musculus with 8 samples.

Results

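ATF4, CHOP and the bZIP factors that work with them were followed through RNA-seq and ribosome profiling of mouse pancreatic tumour cells with and without the kinase GCN2. The group was chosen by gene symbol and holds 6 genes: Atf4, Atf5, Atf3, Ddit3 (which encodes CHOP), Cebpb and Cebpg. They are 6 of the 21425 protein-coding genes and 55536 genes listed in the count files. All 6 were among the 10817 genes measured in RNA-seq and the 9172 measured in footprints, which required a mean count of at least 30 over the 4 libraries of an assay.

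The cells were KRPC-A, a PDAC-like pancreatic tumour line from genetically engineered tumours on the C57BL/6 background. There were 8 groups of 1 library each: Gcn2 KO cells in leucine-free medium, Gcn2 KO cells in amino-acid-replete medium, Gcn2 WT cells in leucine-free medium and Gcn2 WT cells in amino-acid-replete medium, each as RNA-seq and as footprints. Every culture was held for 1 h in its medium, and all lysates contained cycloheximide at 100 µg/mL, an inhibitor of elongation that holds ribosomes on the mRNA. How the KO was made, and whether the KO and WT cells were clones or pools, is not given in the sources used here. With 1 library per group there was no spread between cultures to measure, so no test was made, and every interval below is a 95% interval for counting error only.

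These factors are the transcriptional arm of the integrated stress response. GCN2 senses uncharged transfer RNA and phosphorylates eIF2alpha, which lowers initiation in general but lets ribosomes reach the ATF4 coding sequence past inhibitory upstream open reading frames (uORFs). Atf5 and Ddit3 mRNAs are known to be translated in a similar uORF-dependent way. ATF4 binds DNA as a dimer, often with C/EBPbeta, C/EBPgamma or CHOP, at the C/EBP-ATF response element (CARE), and it raises transcription of genes for amino acid synthesis and transport, of Ddit3 and of Atf3.

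The promoters of Atf4, Atf3, Ddit3 and Cebpb are shown because these 4 had the largest RNA leucine responses of the 6 in at least 1 genotype, given further on. Each is the 250 bases before the RefSeq start, on the gene's strand, in build GRCm38.p6, with motif matches in capitals. They are chr15:80254934-80255183 (plus strand) for Atf4, chr1:191183334-191183583 (minus strand) for Atf3, chr10:127290543-127290792 (plus strand) for Ddit3 and chr2:167688665-167688914 (plus strand) for Cebpb. The Atf3 start used here lies inside the counted gene model, which reaches base 191218039. Atf3 counts may therefore include transcripts from a start further upstream.
Atf4: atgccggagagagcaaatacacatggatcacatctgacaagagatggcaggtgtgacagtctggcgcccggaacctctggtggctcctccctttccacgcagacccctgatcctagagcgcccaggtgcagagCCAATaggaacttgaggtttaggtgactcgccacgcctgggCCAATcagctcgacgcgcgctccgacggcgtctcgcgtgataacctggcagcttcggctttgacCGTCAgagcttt
Atf3: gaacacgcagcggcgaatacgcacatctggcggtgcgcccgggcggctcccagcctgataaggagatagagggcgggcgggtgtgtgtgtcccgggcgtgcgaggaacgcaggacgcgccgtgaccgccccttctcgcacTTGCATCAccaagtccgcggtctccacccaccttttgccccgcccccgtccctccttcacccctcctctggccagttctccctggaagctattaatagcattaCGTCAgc
Ddit3: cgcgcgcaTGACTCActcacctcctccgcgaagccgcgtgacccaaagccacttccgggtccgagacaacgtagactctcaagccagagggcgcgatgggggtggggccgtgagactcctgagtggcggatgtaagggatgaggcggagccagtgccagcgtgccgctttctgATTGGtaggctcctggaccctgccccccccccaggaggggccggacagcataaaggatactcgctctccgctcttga
Cebpb: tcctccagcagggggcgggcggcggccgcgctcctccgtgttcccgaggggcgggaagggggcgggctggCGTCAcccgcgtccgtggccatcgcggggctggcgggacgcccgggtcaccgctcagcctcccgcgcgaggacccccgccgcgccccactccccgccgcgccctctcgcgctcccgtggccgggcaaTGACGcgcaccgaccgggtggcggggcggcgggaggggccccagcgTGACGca

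A CARE (searched as TGATGNAA on both strands) lay 110 to 103 bases before the Atf3 start, on the strand opposite that shown. That motif was present in 3.45% of the 32851 RefSeq windows of the same length. The Ddit3 window held an AP-1 site (TGANTCA, 6.75% of windows) from 242 to 236 bases before the start and a CCAAT box (33.8% of windows) from 77 to 73 bases before it. Atf4 had CCAAT boxes beginning 117 and 76 bases before the start. A shorter motif, TGACG, the core of the cyclic AMP response element, was added after the windows were read, and 17.8% of windows held it. It lay once in the Atf4 window and once in the Atf3 window, 7 to 3 bases before the Atf3 start, and 3 times in the Cebpb window. TGACG and the longer cyclic AMP element TGACGTCA overlap by construction. The full element (1.55% of windows) and the C/EBP palindrome TTGCGCAA (0.164%) had no match in any window of the 6 genes, which says only that these letters are not in these windows. The windows of the 6 genes had 56.0% to 81.6% G and C, against a median of 52.4% over all windows. No binding was measured, so a match is a description of the sequence.

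The targeted gene was read first. Eif2ak4, which encodes GCN2, had 16.7 and 13.6 counts per 1000000 (CPM) in RNA of leucine-free and replete KO cells, against 69.7 and 85.7 CPM in WT cells. Its footprints were 16.2 and 7.26 CPM in KO cells and 65.2 and 60.2 CPM in WT cells in the same media. Reads on Eif2ak4 therefore remained in KO cells at a lower level, with RNA log2 ratios of KO over WT of -2.06 without leucine and -2.65 in replete medium. CPM relates the gene's count to the total of protein-coding counts, scaled between libraries, so a level is relative to the other genes of the library.

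Libraries held 31363754 to 41920840 protein-coding counts in RNA-seq and 2425740 to 9252255 in footprints, with the WT leucine-free footprint library the shallowest. Mitochondrial ribosomal RNA took 33.6% and 33.3% of all RNA-seq counts in leucine-free and replete KO cells, against 30.5% and 24.7% in WT cells, and was left out of the totals. Of 8 duct and epithelial markers, Krt8, Krt18 and Sox9 had at least 10 CPM in every RNA library, while Epcam was at 0 and Krt19 under 1 CPM in all 4. The summed level of that list was 1089 and 473 CPM in leucine-free and replete KO cells, against 323 and 234 CPM in WT cells. Most of it was Sox9 (750.5 and 291 CPM in KO cells, against 187 and 153 CPM in WT cells) and Krt18 (283 and 145 CPM, against 105 and 59.5 CPM). Krt19 went the other way, at 0.226 and 0.261 CPM in KO cells against 0.319 and 0.595 CPM in WT cells. Cdh1 was lower without leucine in both genotypes (2.45 against 3.575 CPM in KO cells, 1.30 against 1.69 CPM in WT cells). Of 6 fibroblast and mesenchymal markers, Pdgfrb and Acta2 had at least 10 CPM in every library, Dcn and Lum were at or near 0, and the sum was 193 and 158 CPM in KO cells against 91.8 and 81.4 CPM in WT cells. Most of that sum in KO cells was Acta2 (128 and 99.6 CPM, against 28.1 and 23.1 CPM in WT cells), while the collagen gene Col1a1 was lower in KO cells (6.00 and 4.59 CPM, against 17.1 and 15.04 CPM), as was Col1a2. All 5 acinar and all 5 immune and endothelial markers were under 1 CPM in every library. Both marker sums were highest in leucine-free KO cells, as were Atf4, Atf3 and Cebpb RNA below, and their part in those results was not tested. In bulk libraries such as these, fewer cells of a type and less RNA per cell cannot be told apart.

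Atf4 was the most abundant of the 6 genes per length in every library. In RNA it had 224 CPM per kilobase of exon in leucine-free KO cells, 197 in replete KO cells, 206 in leucine-free WT cells and 110 in replete WT cells, and it made up 74.1% to 85.4% of the summed level of the 6. The next gene was Atf3 in leucine-free KO cells, at 23.8 CPM per kilobase, and Cebpg in the other 3 libraries, at 12.6 to 16.1. Cebpg (12.6) and Cebpb (12.2) could not be ordered in replete KO cells, nor Ddit3 and Atf3 in replete KO cells (2.10 and 1.56) and leucine-free WT cells (4.51 and 4.49), nor Atf5 and Ddit3 in leucine-free KO cells (4.61 and 3.74), since their counting intervals overlapped. In replete WT cells the same held for Cebpb (10.5) and Atf5 (9.32), and for Ddit3 (2.07) and Atf3 (1.48).

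In footprints the order was different below Atf4. Atf4 had 89.8, 84.6, 224 and 73.0 CPM per kilobase in leucine-free KO, replete KO, leucine-free WT and replete WT cells. Cebpb came after it in 3 libraries, at 20.2 in replete KO, 26.7 in leucine-free WT and 14.96 in replete WT cells, and Atf3 came after it in leucine-free KO cells at 42.4. Ddit3 was last of the 6 in both replete libraries, at 0.361 in KO and 1.35 in WT cells, the fifth in leucine-free KO cells at 5.01, and the third in leucine-free WT cells at 17.3. Neither leucine-free place was settled: the Ddit3 interval overlapped those of Cebpg (6.19) and Atf5 (3.72) in KO cells, and those of Cebpb, Atf3 (13.0) and Atf5 (12.4) in WT cells. Exon counts include footprints on uORFs and divide by untranslated length as well, so these levels do not measure the coding sequences alone.

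**Figure D1:**
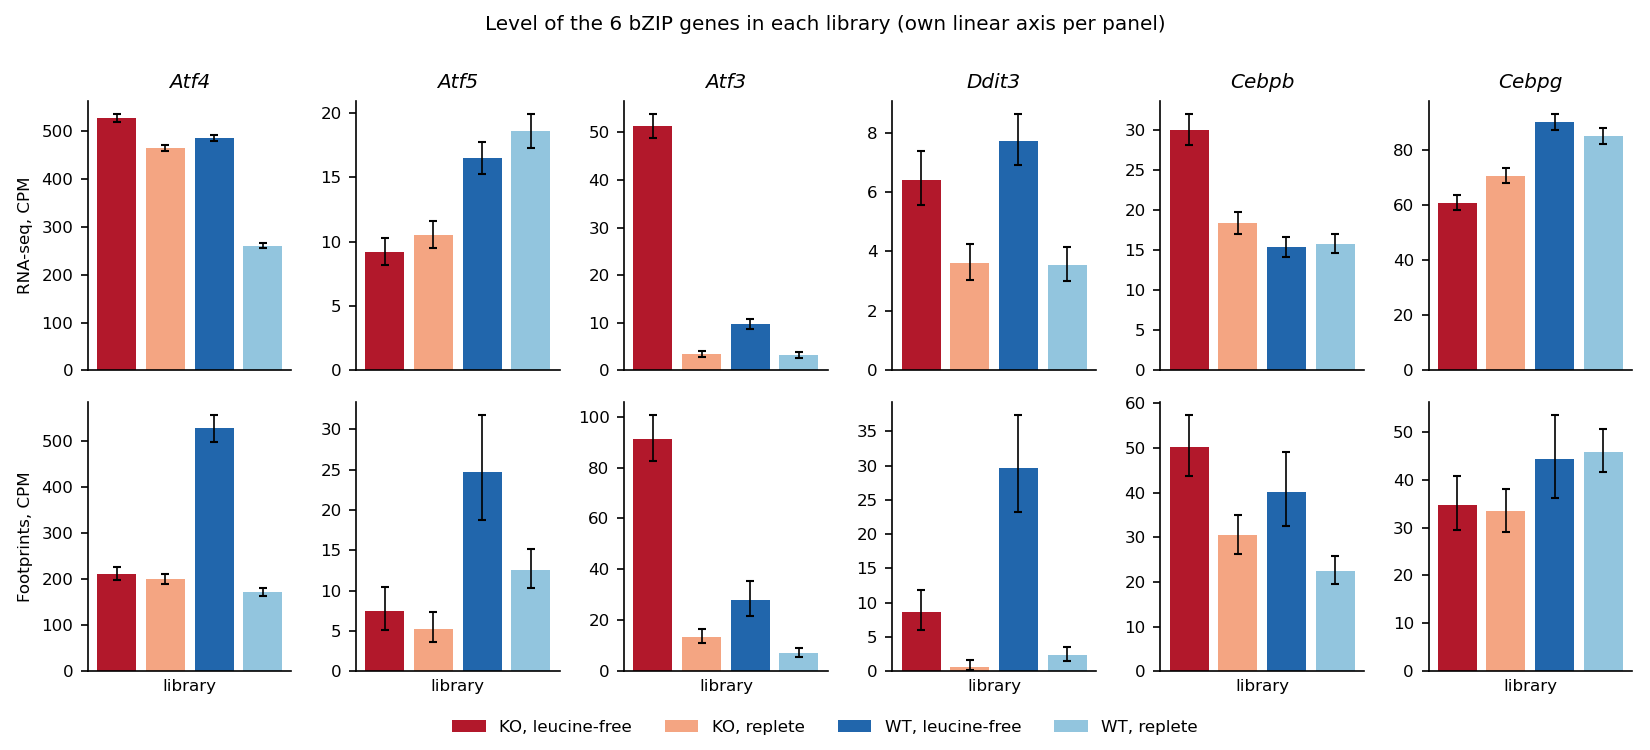
Levels of the 6 genes in CPM (vertical axes, linear and separate for each panel) in the 4 RNA-seq libraries (top) and the 4 footprint libraries (bottom). Each bar is 1 library and whiskers are exact 95% Poisson intervals; Atf4 and Ddit3 footprints stand highest in leucine-free WT cells at 527 and 29.7 CPM, and Atf3 stands highest in leucine-free KO cells in both assays.

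Some counts depend on how overlapping genes were treated. A read overlapping exons of more than one gene was counted for neither, and 312 bases of the single Cebpb exon, or 20.7% of its length, lie within an exon of Tmem189 on the other strand. Ddit3 shares 186 bases, or 10.9%, with other gene models: 105 with a second model that also carries the symbol Ddit3 and had 0 counts in all 8 libraries, 68 with Mars and 13 with Gm4189. Atf5 shares 82 bases and Cebpg 77, while Atf4 and Atf3 share none. Setting the shared bases aside, an alternative added after the overlaps were seen, put Cebpb (25.1 CPM per kilobase) above Atf3 (23.8) in RNA of leucine-free KO cells and above Cebpg (15.4 against 12.8) in replete KO cells. The order of Cebpb and Atf3 was not settled, since their counting intervals overlapped on this scale. The log2 ratios below compare a gene with itself and do not use length.

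A log2 ratio was said to pass when its size reached 1 (2-fold, in either direction) and its counting interval left out 0. Footprints per RNA, or translation efficiency (TE), divides the scaled footprint level of a gene by its scaled RNA level, so a footprint log2 ratio is the sum of the RNA and TE log2 ratios. In KO cells without leucine 1 of the 6 genes passed in RNA (Atf3, higher), where 3.17% of all genes passed in either direction. In footprints of KO cells 2 passed (Atf3 and Ddit3, higher; 2.14% of all genes), and in TE 2 passed (Ddit3 higher and Atf3 lower; 3.00%). In WT cells without leucine 2 passed in RNA (Atf3 and Ddit3; 1.71%), 3 in footprints (Atf4, Atf3 and Ddit3; 1.49%) and 2 in TE (Atf5 and Ddit3; 2.91%), all higher. The median leucine response of the 6 in footprints was 0.61 in KO cells and 1.29 in WT cells, against -0.01 and 0.00 over all measured genes.

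KO cells were then compared with WT cells in the same medium. Without leucine Atf3 passed as higher in RNA (8.38% of all genes passed). In footprints Atf3 was higher and Atf4, Atf5 and Ddit3 were lower (7.25%), and in TE Atf4 and Ddit3 were lower (5.85%). In replete medium none of the 6 passed in RNA (6.86%), Atf5 and Ddit3 were lower in footprints (3.01%), and Ddit3 was lower in TE (1.38%). The KO minus WT difference of the leucine responses passed for Atf3 in RNA, where it was higher (4.65%), for Atf4 in footprints, where it was lower (4.68%), and for Atf3 in TE, where it was lower (7.88%). The comparisons share libraries, so they are not separate pieces of evidence.

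**Figure D2:**
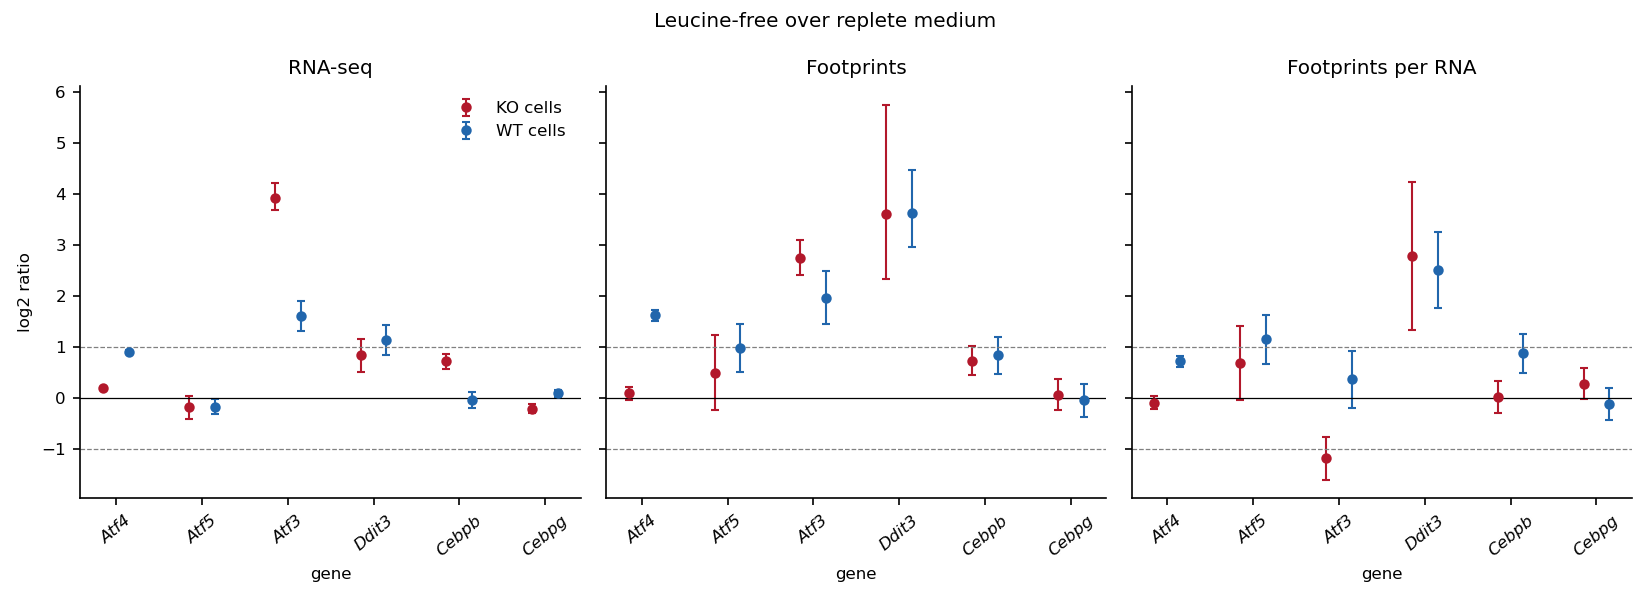
Log2 ratios of leucine-free over replete medium (vertical axis) for the 6 genes in RNA-seq, footprints and footprints per RNA, in KO cells (left point of each pair) and WT cells (right point). Bars are 95% counting intervals and dashed lines mark a 2-fold difference. Atf4 footprints separate at 0.09 in KO and 1.61 in WT cells. Ddit3 footprints sit at 3.61 in KO cells, on 37 against 4 counts, and at 3.63 in WT cells, on 71 against 21.

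ATF4 is the activator at the head of the group, and its gene (ENSMUSG00000042406, chr15:80255184-80257541, plus strand, GRCm38, 2358 bases of exon) had the highest counts of the 6. Atf4 footprints numbered 212 CPM in leucine-free KO cells and 199 CPM in replete KO cells, against 527 CPM in leucine-free WT cells and 172 CPM in replete WT cells. The leucine-free WT library stood alone, and the other 3 lay within 172 to 212 CPM. The leucine response was 0.09 (-0.04 to 0.21) in KO cells, and in WT cells 1.61 (1.51 to 1.72), a 3.06-fold higher footprint count that ranked the fifteenth of 9172 genes. The KO minus WT difference of -1.53 (-1.69 to -1.36) lay below that of 99.8% of all genes.

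Atf4 RNA showed another order. It was 528 CPM in leucine-free KO cells, 465 CPM in replete KO cells, 486 CPM in leucine-free WT cells and 261 CPM in replete WT cells, so here the replete WT library was the one that stood apart. The RNA leucine response was 0.18 (0.15 to 0.21) in KO cells and 0.90 (0.86 to 0.93) in WT cells, below the 2-fold threshold in both. KO cells had 0.12 (0.09 to 0.15) relative to WT cells without leucine and 0.84 (0.80 to 0.87) in replete medium. The WT footprint response of 1.61 was thus the sum of 0.90 in RNA and 0.71 (0.60 to 0.83) in TE, of which neither part passed alone.

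Footprints per Atf4 RNA were low in KO cells in both media. TE was 0.401 in leucine-free KO cells and 0.429 in replete KO cells, against 1.08 in leucine-free WT cells and 0.661 in replete WT cells, where the median gene had 1.00 to 1.03 in each. Of all genes, 15.1% and 18.5% had a lower TE than Atf4 in the KO libraries, against 52.6% and 33.0% in the WT libraries. KO over WT was -1.43 (-1.56 to -1.31) without leucine, which passed, and -0.62 (-0.74 to -0.51) in replete medium.

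ATF5, the closest relative of ATF4 in the set, is likewise encoded by an mRNA with uORFs, and its gene lies on chromosome 7 (ENSMUSG00000038539, chr7:44812256-44816658, minus strand). Atf5 RNA was 9.19 and 10.5 CPM in leucine-free and replete KO cells, against 16.5 and 18.6 CPM in WT cells. Both KO libraries lay below both WT libraries, with log2 ratios of -0.84 (-1.05 to -0.64) without leucine and -0.82 (-1.002 to -0.65) in replete medium, and the response to leucine was small in either genotype, at -0.19 and -0.17.

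Atf5 footprints were 7.42 CPM in leucine-free KO cells and 5.25 CPM in replete KO cells, against 24.6 CPM in leucine-free WT cells and 12.6 CPM in replete WT cells. The KO libraries again lay below the WT libraries, here past the threshold, at -1.71 (-2.40 to -1.09) and -1.25 (-1.86 to -0.70). In WT cells the footprint leucine response of 0.97 (0.49 to 1.44) was just under the threshold (1.02, past it, with the length trend removed), and TE passed at 1.14 (0.67 to 1.62). KO cells had 0.49 (-0.25 to 1.24) in footprints and 0.68 (-0.04 to 1.41) in TE. The 4 Atf5 footprint counts were 32, 34, 59 and 114, so the KO minus WT difference of -0.48 (-1.30 to 0.35) was not resolved at this depth.

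CHOP, encoded by Ddit3 (ENSMUSG00000025408, chr10:127290774-127296288, plus strand), is a C/EBP-family factor that dimerises with other C/EBP proteins and with ATF4 and is known for promoting cell death under prolonged stress. Ddit3 footprints numbered 37 counts (8.58 CPM) in leucine-free KO cells and 4 counts (0.618 CPM) in replete KO cells, against 71 counts (29.7 CPM) in leucine-free WT cells and 21 counts (2.31 CPM) in replete WT cells. Both leucine-free libraries lay above both replete libraries. The mean of 33.2 counts was just over the minimum of 30 and came mostly from the leucine-free libraries, so a gene of this kind was measured only because it was high there.

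The leucine response of Ddit3 footprints was 3.61 (2.32 to 5.74) in KO cells, a 12.2-fold higher value that ranked the fourth of 9172 genes. In WT cells it was 3.63 (2.96 to 4.46), or 12.4-fold, the highest of all 9172 genes. The KO minus WT difference was -0.02 (-1.59 to 1.55), an interval that also holds a 2-fold difference either way. The KO libraries were lower than the WT libraries in each medium, at -1.77 (-2.40 to -1.20) without leucine and -1.80 (-3.91 to -0.34) in replete medium, the second of which rests on 4 against 21 counts.

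The smaller part of that footprint response lay in Ddit3 RNA. RNA was 6.41 CPM in leucine-free KO cells and 3.60 CPM in replete KO cells, against 7.73 CPM in leucine-free WT cells and 3.55 CPM in replete WT cells, with KO over WT at -0.27 (-0.53 to -0.01) without leucine and 0.02 (-0.32 to 0.37) in replete medium. The log2 responses were 0.83 (0.51 to 1.16) in KO cells and 1.12 (0.84 to 1.42) in WT cells, and only the WT response passed, though it was 0.93 and did not pass with the length trend removed. TE was 1.34 in leucine-free KO cells and 0.172 in replete KO cells, against 3.84 in leucine-free WT cells and 0.653 in replete WT cells. The TE responses of 2.78 (1.33 to 4.22) in KO cells and 2.51 (1.76 to 3.26) in WT cells ranked the fourth and the second of 9100 genes, and KO over WT in TE was -1.50 (-2.13 to -0.88) without leucine and -1.82 (-3.33 to -0.32) in replete medium. The replete value was -1.25 and no longer passed with a prior count of 5 in place of 0.5.

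ATF3, a stress-induced factor that represses or activates targets with JUN and other partners, is encoded by Atf3 (ENSMUSG00000026628, chr1:191170296-191218039, minus strand). Its RNA was 51.3 CPM in leucine-free KO cells and 3.37 CPM in replete KO cells, against 9.67 CPM in leucine-free WT cells and 3.19 CPM in replete WT cells. The replete libraries were alike, with KO over WT at 0.08 (-0.28 to 0.44), and the leucine-free KO library stood far above the rest. The response was 3.92 (3.67 to 4.20) in KO cells, a 15.2-fold rise that ranked the sixth of 10817 genes, and 1.597 (1.31 to 1.89) in WT cells, a 3.03-fold rise. The KO minus WT difference was 2.33 (1.94 to 2.71), the reverse in sign of that of Atf4 at -0.71.

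Atf3 footprints were 91.3 CPM in leucine-free KO cells and 13.6 CPM in replete KO cells, against 28.0 CPM in leucine-free WT cells and 7.17 CPM in replete WT cells. They had the same highest library as the RNA, with responses of 2.74 (2.41 to 3.10) in KO cells and 1.95 (1.45 to 2.48) in WT cells. The KO footprint response was smaller than the KO RNA response, which gave a TE response of -1.18 (-1.61 to -0.76) there, against 0.36 (-0.21 to 0.92) in WT cells. TE itself was 1.78 and 4.04 in leucine-free and replete KO cells, against 2.89 and 2.25 in WT cells, all above the median gene. KO over WT was 1.70 (1.33 to 2.10) in footprints without leucine and 0.92 (0.44 to 1.41) in replete medium, where it did not reach 2-fold. As KO minus WT, the leucine responses of Atf3 differed by 0.79 (0.19 to 1.38) in footprints and by -1.54 (-2.25 to -0.83) in TE.

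C/EBPbeta and C/EBPgamma are partners of ATF4, the second of which has no activation domain of its own. Cebpb (ENSMUSG00000056501, chr2:167688915-167690418, plus strand) had RNA of 29.98 CPM in leucine-free KO cells and 18.3 CPM in replete KO cells, against 15.3 CPM in leucine-free WT cells and 15.8 CPM in replete WT cells. Leucine-free KO cells had the highest value, as for Atf3, but no ratio passed: the leucine response was 0.71 (0.57 to 0.85) in KO cells and -0.04 (-0.20 to 0.12) in WT cells, and KO over WT was 0.97 (0.82 to 1.11) without leucine. The last of these was 1.01 with the length trend removed, which passed.

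Cebpb footprints were 50.3 CPM in leucine-free KO cells and 30.4 CPM in replete KO cells, against 40.1 CPM in leucine-free WT cells and 22.5 CPM in replete WT cells. Both leucine-free libraries lay above both replete libraries, with responses of 0.72 (0.44 to 1.01) in KO cells and 0.83 (0.47 to 1.19) in WT cells that differed by -0.11 (-0.56 to 0.34). These footprint responses were made up of different parts: TE was 0.01 (-0.30 to 0.33) in KO cells and 0.87 (0.49 to 1.26) in WT cells, while RNA differed in the other direction, by 0.75 (0.54 to 0.96) as KO minus WT. With the trend of ratios over gene length removed, the WT response in TE was 1.17 and the KO minus WT difference in TE -1.07, both past the threshold.

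Cebpg (ENSMUSG00000056216, chr7:35046422-35056573, minus strand) varied least. Its RNA was 60.9 and 70.8 CPM in leucine-free and replete KO cells, against 90.3 and 85.3 CPM in WT cells, so both KO libraries were below both WT libraries, by -0.57 (-0.65 to -0.49) and -0.27 (-0.34 to -0.20). Footprints had the same order of genotypes, at 34.8 and 33.4 CPM in KO cells and 44.3 and 45.9 CPM in WT cells. No Cebpg ratio passed in any comparison, and its TE stayed between 0.472 and 0.571 in all 4 pairs of libraries.

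**Figure D3:**
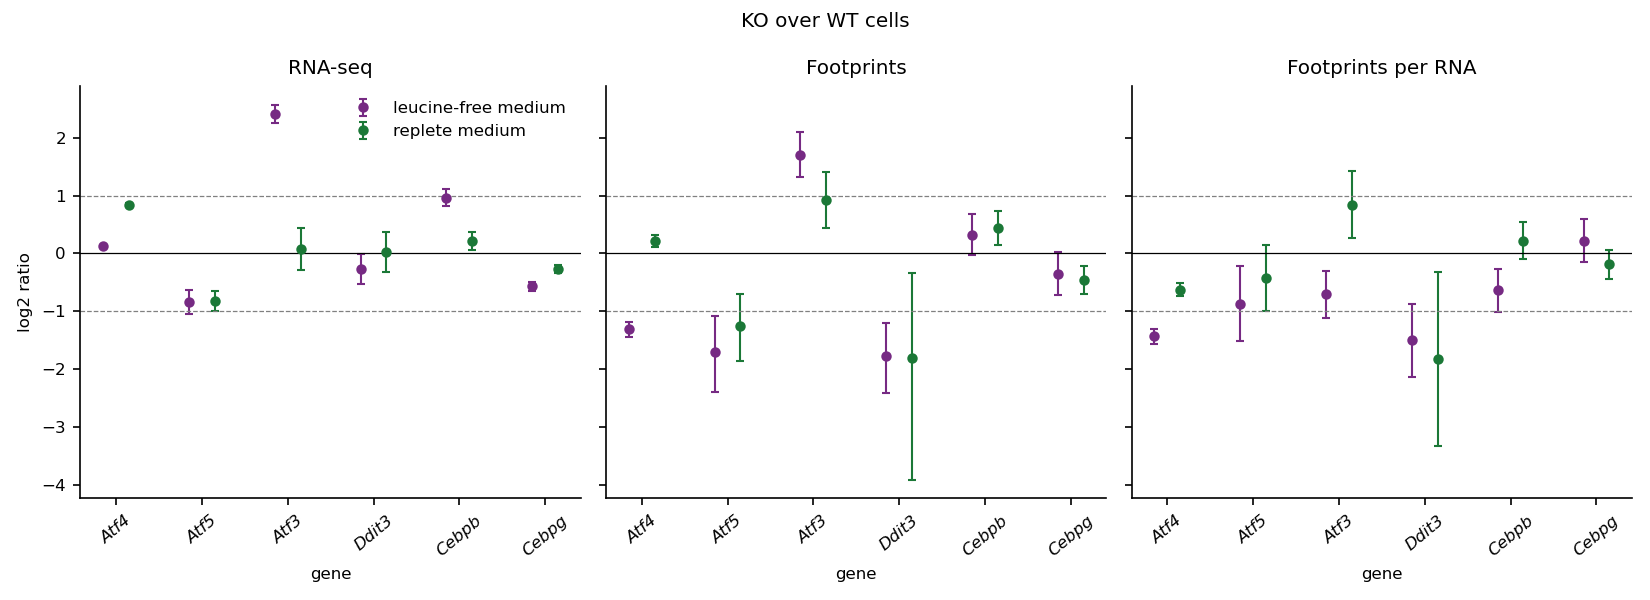
Log2 ratios of KO over WT cells (vertical axis) for the 6 genes in RNA-seq, footprints and footprints per RNA, in leucine-free medium (left point of each pair) and replete medium (right point). Bars are 95% counting intervals and dashed lines mark a 2-fold difference; Atf5 and Ddit3 footprints lie below -1 in both media, and Atf4 footprints do so only without leucine, at -1.31 against 0.21 in replete medium.

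**Figure D4:**
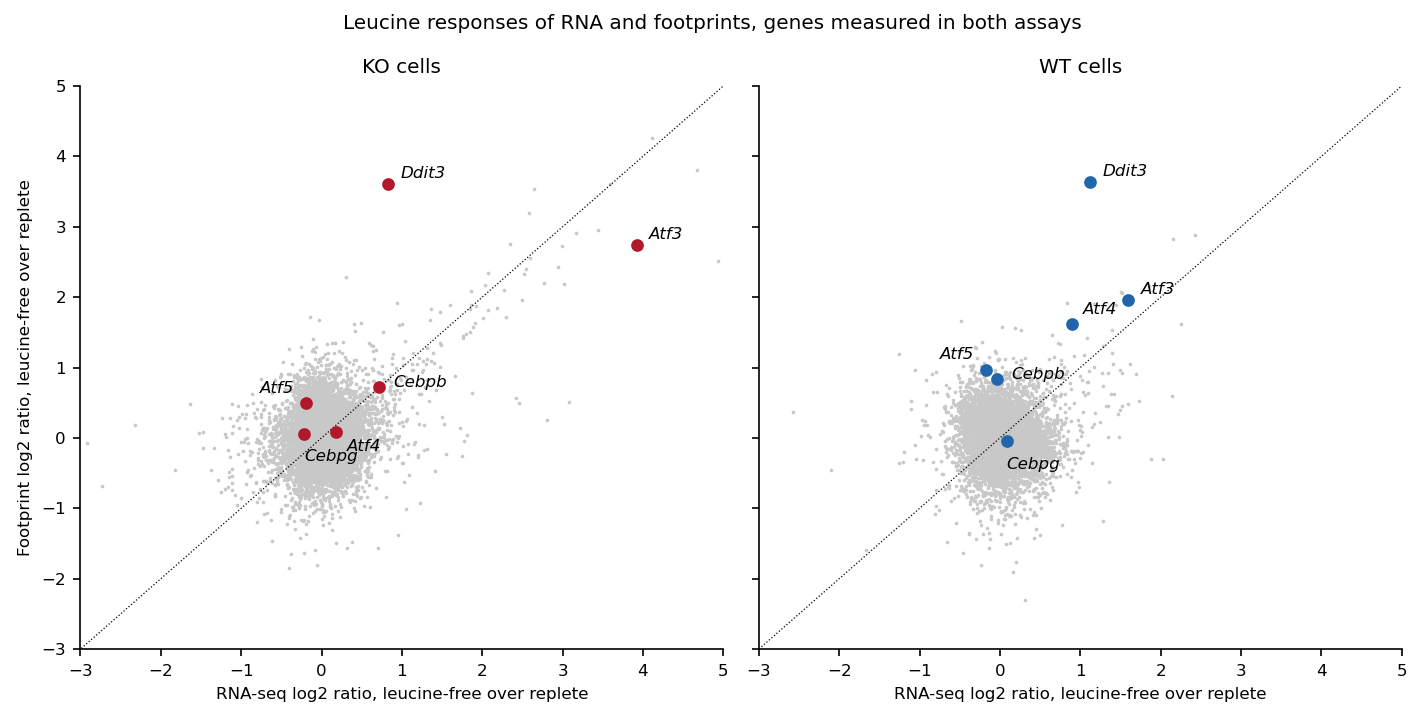
Leucine response of footprints (vertical axis, log2) against that of RNA (horizontal axis, log2) for the 9100 genes measured in both assays, in KO cells (left) and WT cells (right), with the 6 genes named and the dotted line marking equal responses; 2 genes of the KO panel lie outside the axes. Ddit3 lies far above the line in both panels, Atf3 below it in KO cells and near it in WT cells, and Atf4 near the origin in KO cells.

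Other genes of the bZIP family were counted from a list of 46, of which 34 were measured in RNA and 29 in footprints. In RNA of leucine-free over replete KO cells 7 of 34 passed as higher and none as lower (3.17% of all genes passed), with a list median of 0.23 against 0.00 over all genes. The 3 largest were Fos at 4.11, Fosb at 3.17 and Jun at 3.00, which encode subunits of the immediate early factor AP-1. Fos RNA was 167 and 9.66 CPM in leucine-free and replete KO cells, against 13.0 and 2.90 CPM in WT cells. In WT cells 3 were past the threshold as higher and 1 as lower (1.71% of all genes), led by Fos at 2.16, Nfe2l3 at -1.18 and Junb at 1.17. Atf3, with 3.92 in KO cells and 1.597 in WT cells, lay between Fos and Fosb in both genotypes.

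In footprints 6 of the 29 passed as higher in KO cells (2.14% of all genes passed) and 4 in WT cells (1.49%), led in both by Fos (4.26 and 2.83), Fosb (2.91 and 1.90) and Jun (2.72 and 1.15). KO over WT cells without leucine, 10 of 34 passed as higher in RNA (8.38% of all genes), with Fosb at 3.94, Fos at 3.68 and Jun at 3.10. In replete medium 4 did (6.86% of all genes), with Junb at 2.10, Fosb at 1.94 and Fos at 1.73. For Atf3 these RNA ratios were 2.41 (2.25 to 2.57) without leucine and 0.08 in replete medium. Unlike Fos, Fosb and Junb, Atf3 therefore did not pass in replete cells. Jun, Fosl2 and Jund RNA was also under 2-fold there, at 65.1, 198 and 21.1 CPM in replete KO cells. Replete WT cells had 37.9, 124 and 11.1 CPM. These differences between genes were not tested. In RNA the KO minus WT difference passed as higher for 7 of 34 (4.65% of all genes passed), led by Jun at 2.32, Fosb at 2.01 and Fos at 1.95, beside 2.33 for Atf3. In TE, with 28 measured, the list passed once or not at all in 4 of the 5 comparisons (1.38% to 5.85% of all genes passed). In the KO minus WT difference Fosl1 (-1.25) and Creb3l2 (-1.03) were lower and Jund (1.08) higher (7.88%). The list median in TE was 0.33 for the WT leucine response, with 22 of 28 above 0. For the KO response it was -0.03, against -0.02 over all genes in both genotypes. It was -0.31 for KO over WT without leucine and -0.35 for the KO minus WT difference, against 0.01 and 0.00.

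**Figure D5:**
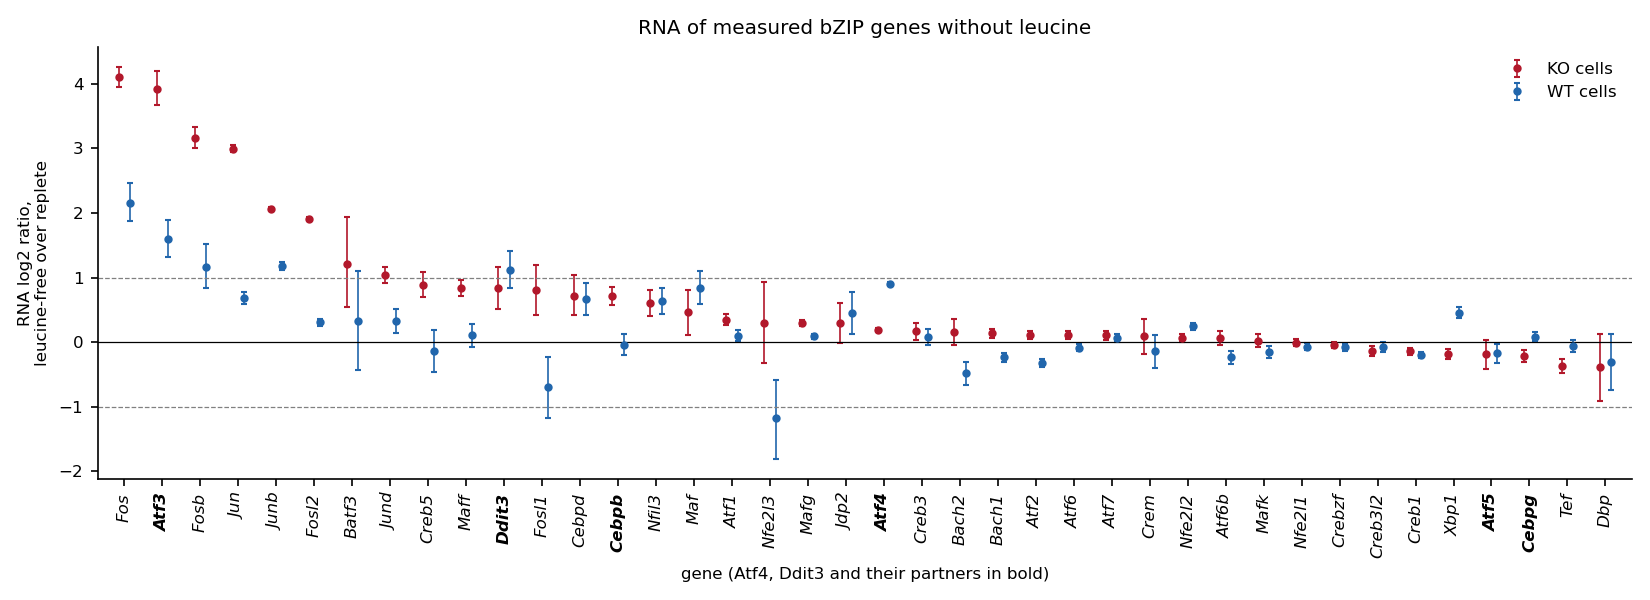
RNA log2 ratios of leucine-free over replete medium (vertical axis) for the measured genes of the bZIP family (horizontal axis, ordered by the KO value), in KO cells (left point) and WT cells (right point). Bars are 95% counting intervals, dashed lines mark a 2-fold difference and the 6 genes are in bold; Atf3 is among the AP-1 genes at the left, at 3.92 in KO and 1.597 in WT cells, while Atf4 has 0.18 and 0.90.

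Known targets of ATF4 and CHOP were counted from a list of 36, of which 33 were measured in RNA. Without leucine 1 passed as higher in RNA of KO cells (Ddit4, an inhibitor of mTORC1 signalling, at 1.14), where 3.17% of all genes passed, with a list median of -0.04. In WT cells 4 passed as higher and 1 as lower (1.71% of all genes), with a median of 0.29. Chac1, which degrades glutathione and has a promoter bound by ATF4, had 3.74 and 4.52 CPM in leucine-free and replete KO cells, against 25.1 and 4.66 CPM in WT cells. Only the leucine-free WT library was high, and its response there was 2.43 (2.21 to 2.66). Trib3, a pseudokinase that CHOP and ATF4 induce, had 1.39, and Vldlr, a lipoprotein receptor, was lower at -2.11 on 14 against 64 counts.

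Between genotypes without leucine, RNA of 5 targets was lower and of 1 target higher in KO than in WT cells (8.38% of all genes passed), with a median of -0.34. The largest were Stc2 at -3.59, Chac1 at -2.74 and Trib3 at -1.87. In footprints 5 of 29 were lower and none higher (7.25%), with a median of -0.58, led by Chac1 at -3.07, Ppp1r15a at -1.85 and Trib3 at -1.62. In replete medium RNA of 3 was lower and of 1 higher, not far from the share of all genes (6.86%). Among them were Stc2 at -2.58, Slc7a11 (the cystine transporter) at -1.37 and Phgdh (serine synthesis) at 1.25. None of the 29 passed in footprints in replete medium, where 3.01% of all genes did. Of the 33 targets, 4 had a lower and 1 a higher KO minus WT difference in RNA (4.65% of all genes), with Chac1 at -2.70, Trib3 at -1.59 and Vldlr at 1.42. Asns, which encodes asparagine synthetase, a classic ATF4 target, had 140 and 109 CPM of RNA in leucine-free and replete KO cells and 177 and 154 CPM in WT cells, and did not pass in any comparison.

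A list of 8 other mRNAs with known uORF control, of which 7 were measured, was counted beside Atf4. It shares Ppp1r15a and Slc7a1 with the target list, so the lists are not separate results. None of the 7 passed in footprints of KO cells without leucine (2.14% of all genes did), with a median of -0.31, and 3 passed as higher in WT cells (1.49%), with a median of 0.48: Ppp1r15a (a subunit of the phosphatase that acts on eIF2alpha) at 1.91, Ifrd1 at 1.57 and Ibtk at 1.02. The KO minus WT difference passed as lower for 4 of 7 in footprints (4.68% of all genes) and 5 of 7 in TE (7.88%), with medians of -1.06 and -1.18 against -0.02 and 0.00 over all genes. In RNA none of the 7 passed in any of the 5 comparisons, where 1.71% to 8.38% of all genes passed.

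Among the 7 genes for the eIF2alpha kinases, their substrate and its phosphatase subunits, no RNA leucine response passed in either genotype. Of all genes, 3.17% passed there in KO and 1.71% in WT cells. Eif2ak4 was the gene that passed in RNA between genotypes (8.38% of all genes without leucine and 6.86% in replete medium). In footprints the leucine response of Ppp1r15a passed in WT cells, at 1.91 (1.49% of all genes passed). That of Eif2ak4 itself passed in KO cells (2.14%), at 1.15 (0.61 to 1.73) on 70 against 47 counts. For KO over WT without leucine, 3 of 7 were lower in footprints (Eif2ak4, Ppp1r15a and Ppp1r15b, with 7.25% of all genes passing). In TE 2 were lower (Ppp1r15b and Ppp1r15a, with 5.85%). The KO minus WT difference in footprints (4.68% of all genes) was lower for Ppp1r15a (-1.33) and Ppp1r15b (-1.13). It was higher for Eif2ak3 (1.19), which encodes the kinase PERK, and for Eif2ak4 (1.04).

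The genes whose 8 library values lay nearest to those of a member were found by Euclidean distance between log2 CPM values centred within each assay, among the 7143 to 7144 other genes with a mean count of at least 100 in both assays. For Atf3 these were Ccn1 at a distance of 0.985, Egr2 at 1.08 and Ier3 at 1.44, against a median of 4.27 over all candidates. For Ddit3 they were Txnip at 2.46, Tsc22d3 at 2.74 and Ifrd1 at 2.77, against a median of 4.21. Ddit3 itself had a mean of 33.2 footprint counts, so its own counting error adds to these distances. Genes of its footprint depth were not candidates. For Atf4 they were Son at 0.897, Hist1h2ac at 0.915 and Slc50a1 at 0.945, against a median of 1.59. Among the other 5 members Cebpb was nearest to Atf4 (1.40) and to Atf3 (3.24), and Atf5 and Atf4 were nearest to Ddit3 (both 3.24). The 8 values share libraries and depth, so these distances are descriptions.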

How the data were processed

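RNA-seq and ribosome profiling libraries of KRPC-A cells, Gcn2 KO and WT, were analysed from the deposited raw counts of reads per gene (1 library in each of 8 groups). Per the file headers, the authors counted with featureCounts 1.6.4 on exons of Ensembl release 96, with none of the options for strand, for multiple mapping or for overlapping genes set, so antisense reads cannot be told apart and footprints on uORFs are included. The submitters' processing notes name cutadapt, STAR, Subread and GRCm38.

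Symbols were joined by Ensembl identifier, and RefSeq (GRCm38.p6) gave the protein-coding class. Libraries were scaled within each assay by TMM factors (edgeR 4.0.16, R 4.3.3) over protein-coding genes with a mean count of at least 30. Log2 ratios used a prior count of 0.5. Pairs of libraries have exact 95% conditional binomial (Clopper-Pearson) intervals, CPM values exact Poisson intervals, and TE and KO minus WT values Wald intervals. No molecular identifiers separate PCR copies, so intervals cover counting error only. No p-value was computed. The calculations were tested on simulated counts (Python 3.11.15, numpy 2.4.6, pandas 2.3.3, scipy 1.17.1).

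The 6 genes and all lists were chosen with earlier results of these data known. The text names the 6 genes in every comparison, up to 3 passing genes with the largest ratios from each list, and the 3 genes nearest to Atf4, Ddit3 and Atf3. Other genes named for their role (Asns, Chac1 and Fos levels, Slc7a11, Jund and the eIF2alpha genes among them) were chosen after their values were seen where that rule does not name them. Promoter sequences are from RefSeq (GRCm38.p6), where all 6 genes matched. The alternatives tried were DESeq2 1.42.0 size factors, plain totals, mean count minimums of 10 and 100 and none, a prior count of 5, and removal of a lowess trend over gene length (statsmodels 0.14.6).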

Additional observations from a re-analysis of the deposited data

Results flagged for a closer look

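In 3 results the 2 groups of a contrast went opposite ways, each with 1 library per group and with the difference between them not tested against replicates. Atf4 footprints in KO over WT cells had a log2 ratio of -1.31 (-1.44 to -1.19) in leucine-free medium and 0.21 (0.10 to 0.32) in replete medium. Atf3 footprints per RNA in KO over WT cells had -0.71 (-1.11 to -0.30) in leucine-free medium and 0.84 (0.26 to 1.42) in replete medium. Cebpg RNA in leucine-free over replete medium had -0.22 (-0.30 to -0.13) in KO cells and 0.083 (0.02 to 0.15) in WT cells, where neither ratio reached 2-fold.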

How the results depend on the processing

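Under the 7 alternatives no passing ratio of the 6 genes changed sign, and 94 of 105 counts of passing genes stayed within 1.5 times. The other 11 counts moved. Other count minimums only change which genes are measured, so under them no ratio could change sign. All 6 genes stay measured with a minimum of 10 or none, and in RNA with 100. Those counts could not move and say nothing about stability. A mean count of at least 100 left 4 of the 6 genes measured in footprints, since Ddit3 and Atf5 drop out, and the passing genes then numbered 1 in footprints and 1 in TE for the leucine response in KO cells, 0 in TE for that in WT cells, 2 in footprints and 1 in TE for KO over WT without leucine, and 0 in footprints and 0 in TE in replete medium. A prior count of 5 left 0 in TE for KO over WT in replete medium. With the length trend removed, 1 passed in RNA of WT cells without leucine, 2 in RNA for KO over WT without leucine (Atf3 and Cebpb) and 2 in TE for the KO minus WT difference (Atf3 and Cebpb); the cause was not tested. No paired analysis was possible because each group has 1 library and no replicate numbers.

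Over all genes, other filters moved the number passing by over 1.5 times. In RNA, footprints and TE it was 343, 196 and 273 for the KO leucine response (135 to 1355, 121 to 342 and 109 to 752 under the filters that moved it), 185, 137 and 265 for WT (65 to 894, 61 to 271 and 119 to 623), 906, 665 and 532 for KO over WT without leucine (548 to 1853, 356, and 283 to 896), 742, 276 and 126 in replete medium (436 to 1807, 114 to 719 and 51 to 559), and 503, 429 and 717 for the KO minus WT difference (217 to 1164, 235, and 395 to 1095). Plain totals changed the split in TE from 143 higher and 130 lower to 192 and 94 for the KO leucine response, and from 358 and 174 to 480 and 129 for KO over WT without leucine. Length correction changed the WT leucine response from 91 and 94 to 66 and 111 in RNA, and from 105 and 160 to 103 and 92 in TE. Depth limits Ddit3 and Atf5 footprints most, with 4 to 71 and 32 to 114 counts per library.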
